A study of Mus musculus with 9 samples.

Results

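H3K27ac, the acetylated lysine of histone H3 that marks active promoters and enhancers, was examined at 8 genes that regulate signalling through phosphoinositide 3-kinase (PI3K) in naive CD8+ T cells of the mouse. The genes were Pik3cd, Pik3r1, Pik3r5, Pik3ip1, Inpp5d, Akt1, Tsc1 and Rptor. They were chosen by name, and each was taken from its gene body to 50 kb upstream of its annotated 5′ end in the mm9 build. All 8 genes had H3K27ac islands, which are stretches called as enriched for the mark, in both genotypes, as did 16487 of 22380 protein-coding genes, and all 8 had an island within 1 kb of the 5′ end in both, against 58.5% of protein-coding genes (2.51% had it in WT alone and 2.75% in dKO alone). ChIP-seq had been performed on 4 WT and 3 dKO samples, with 1 input sample for each genotype, 9 samples in all. WT mice carried hCD2-Cre, Rosa26 GFP and unaltered Tcf7+/+ Lef1+/+ alleles, and dKO mice carried hCD2-Cre, Rosa26 GFP and Tcf7 fl/fl Lef1 fl/fl, so that Cre and the GFP reporter were present in both genotypes. Tcf7 and Lef1 encode the transcription factors Tcf1 and Lef1. The hCD2-Cre transgene acts mainly in mature T cells outside the thymus, and GFP marks cells in which Cre was active. The strains were on the C57BL/6 background. Cells were sorted from the spleen of young adult mice of either sex as GFP+ TCRbeta+ CD62Lhi CD44lo-med CD8+ cells. The labels give no age for single samples, and the sort was on GFP rather than on loss of the Tcf1 and Lef1 proteins. Chromosome Y held 1 island with 98 counts in WT, against 17 islands with 19633 counts in dKO. The mix of sexes may thus have differed between the genotypes, and sex and genotype cannot be told apart in the values below.

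PI3K phosphorylates a membrane lipid to a form that recruits and activates the kinase Akt, which in turn relieves the TSC complex's restraint on the growth-promoting complex mTORC1. In T cells the pathway is engaged by the antigen receptor, costimulatory receptors and cytokine receptors, and it drives growth, metabolism and the exit from the naive state. Naive T cells keep it low with phosphatases and inhibitory proteins while they wait for antigen.

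The authors pooled the samples of a genotype before they called islands, so there was 1 island list per genotype, no spread between samples could be computed, and no difference was tested. The WT list held 65563 islands with 82668007 counts over 393 Mb, and the dKO list held 82213 islands with 57665047 counts over 429 Mb. Counts per covered kb averaged 210.5 in WT and 134 in dKO. Each gene's counts were therefore divided by the total of its list and are given as CPM, which stands for counts per 1000000 island counts of that list. The count ratio is the log2 of dKO to WT CPM, and it equals the sum of the log2 ratio of covered width and the log2 ratio of CPM per covered kb, called depth here. A gene was called at a ratio of at least 1.5 in either direction, which is 0.585 on the log2 scale. Intervals are 95% Wilson intervals and cover counting error alone. In a pool of cells, a mark carried by fewer cells and a weaker mark in each cell cannot be told apart. T cell markers had an island at the TSS for 10 of 10 genes in both lists. Pax5, Siglech and Ncr1, markers of B cells, plasmacytoid dendritic cells and NK cells, had none in either list. Summed CPM at TSS islands were 199 in WT and 190.1 in dKO for 4 B cell markers, 122 and 106 for 6 myeloid or dendritic cell markers, and 49.9 and 64.3 for 2 NK cell markers, where islands can also cover neighbouring genes. The 2 markers of CD4+ or regulatory T cells, Cd4 and Foxp3, summed to 17.3 in WT and 138 in dKO. Most of the latter came from Foxp3 with 3.22 in WT and 120.3 in dKO, while Cd4 had 14.1 and 17.3. The authors reported higher Foxp3 transcripts and FOXP3 protein in the dKO CD8+ T cells themselves. The part of other cell types in the values below was not tested. The deleted genes themselves had islands in both lists, at 62899 WT and 49281 dKO counts for Tcf7 and 63497 and 36089 for Lef1. Counts over a locus do not check the excision of an exon.

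The promoter sequences at which the islands of these genes lie are given for Pik3r1, whose alternative promoters differed from each other, for Tsc1 and Rptor, whose promoter regions were lower in dKO, and for Inpp5d, whose promoter region was higher while its island at the 5′ end was lower. They are the 250 bases before a transcription start of RefSeq (table of GRCm38.p6), matched letter by letter to 1 place each in mm9 and read 5′ to 3′ on the strand of the gene. In all, 12 such promoters of the 8 genes were matched. CpG dinucleotides are in capitals. The long and the short Pik3r1 transcripts start 75.6 kb apart on the minus strand of chromosome 13, and the first promoter held 30 CpGs while the other held 6. The median of 32851 RefSeq promoters was 6 CpGs.
Pik3r1 long transcript, chr13:102538173-102538422, minus strand: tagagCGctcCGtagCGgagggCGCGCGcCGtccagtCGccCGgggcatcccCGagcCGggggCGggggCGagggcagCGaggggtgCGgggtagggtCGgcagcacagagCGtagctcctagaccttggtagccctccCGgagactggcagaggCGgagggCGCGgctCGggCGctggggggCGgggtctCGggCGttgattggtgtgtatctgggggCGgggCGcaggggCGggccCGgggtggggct
Pik3r1 short transcript, chr13:102462586-102462835, minus strand: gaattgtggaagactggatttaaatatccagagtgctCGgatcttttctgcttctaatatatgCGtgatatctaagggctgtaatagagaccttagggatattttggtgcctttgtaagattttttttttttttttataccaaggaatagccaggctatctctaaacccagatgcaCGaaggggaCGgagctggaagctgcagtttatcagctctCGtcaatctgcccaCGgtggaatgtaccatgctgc
Tsc1, chr2:28496503-28496752, plus strand: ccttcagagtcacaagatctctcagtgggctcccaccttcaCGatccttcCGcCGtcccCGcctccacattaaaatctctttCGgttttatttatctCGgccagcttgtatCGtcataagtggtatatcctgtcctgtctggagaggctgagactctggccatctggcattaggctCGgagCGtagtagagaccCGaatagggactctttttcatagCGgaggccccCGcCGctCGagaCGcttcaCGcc
Rptor, chr11:119463969-119464218, plus strand: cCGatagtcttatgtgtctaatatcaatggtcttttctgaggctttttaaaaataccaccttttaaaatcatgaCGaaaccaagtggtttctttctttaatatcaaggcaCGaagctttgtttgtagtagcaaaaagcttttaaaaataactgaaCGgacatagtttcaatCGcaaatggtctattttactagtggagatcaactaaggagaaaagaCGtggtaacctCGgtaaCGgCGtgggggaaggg
Inpp5d, chr1:89516637-89516886, plus strand: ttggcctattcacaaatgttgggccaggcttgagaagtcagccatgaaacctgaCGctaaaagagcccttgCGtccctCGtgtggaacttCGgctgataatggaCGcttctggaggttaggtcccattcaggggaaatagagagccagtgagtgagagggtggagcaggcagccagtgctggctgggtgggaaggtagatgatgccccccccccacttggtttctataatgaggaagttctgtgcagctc

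Tsc1 held 16 CpGs, Rptor 9 and Inpp5d 5 in these windows. Akt1 had RefSeq starts 0.608 kb apart within the same WT island, with 7 CpGs before the upstream start and 31 before the downstream start. CTTTGAT, a core form of the motif bound by Tcf1 and Lef1, was searched on both strands and was in 0 of the 12 promoters, against 3.21% of all RefSeq promoters of this length. CCGGAAG, a motif of ETS factors, was likewise in 0 of 12, against 6.91%. These letters not being in the windows says nothing of binding elsewhere.

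With whole islands from the gene body to 50 kb upstream, each of the 8 genes stayed within a ratio of 1.5 of WT. Of the 8 genes, 0 were called at a ratio of 1.5 in either direction, and 22.9% of protein-coding genes were called, 11.5% higher and 11.5% lower in dKO. With only 8 genes, a count of 0 does not set them apart from that share. The median log2 count ratio was 0.21 for the 8 genes and -0.03 for all protein-coding genes. Counts were higher in dKO at 6 of 8 genes, against 47.4% of all genes, and the 2 lower genes were Pik3r1 and Pik3ip1. Islands were wider in dKO at 6 of 8 genes, against 65.1%, and wider by a ratio of 1.5 at 2 of 8, Akt1 and Tsc1, against 22.2%. Depth was above WT at 2 of 8, Pik3r5 and Inpp5d, against 20.6%, and past 1.5 at 0 of 8, against 9.7% of all genes (9.28% lower in dKO). At Pik3r5 the log2 depth ratio was only 0.0014, with an interval that spanned 0 (-0.026 to 0.029). Both a wider cover and a lower depth were found at 4 of 8 genes, Pik3cd, Akt1, Tsc1 and Rptor, against 54.9% of all genes. The count of called genes depended on the window, with 1 of 8 (Akt1, with a log2 count ratio of 1.99) for the gene body alone and 4 of 8, 3 of them lower in dKO, for islands within 1 kb of the TSS alone, where 33.3% of all genes were called.

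**Figure D1:**
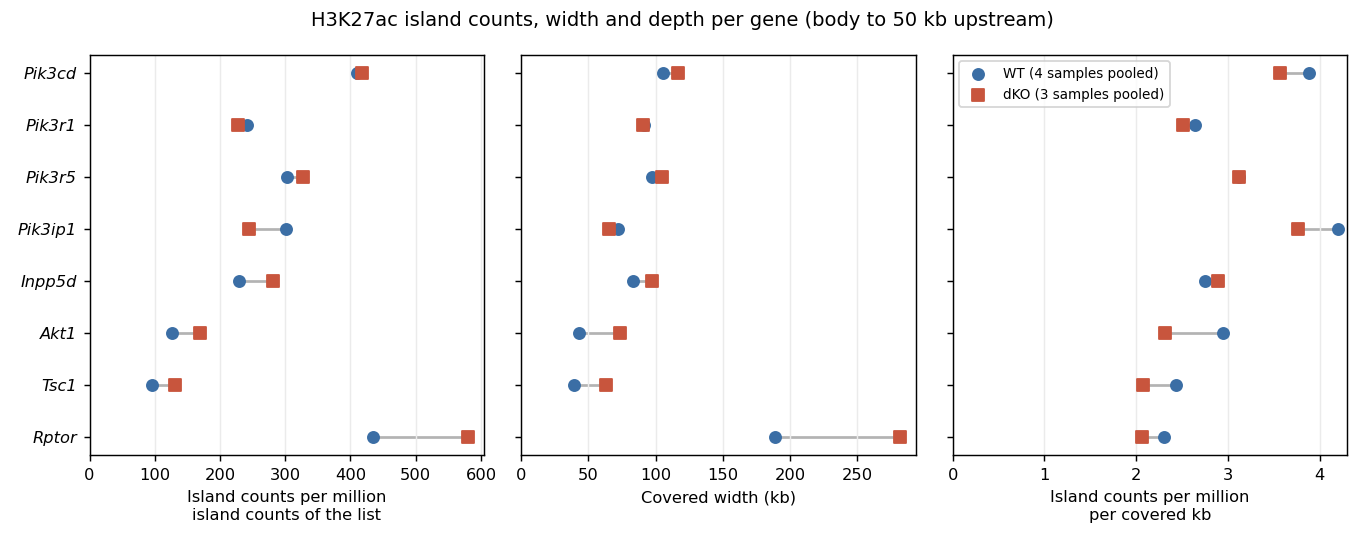
H3K27ac island CPM, covered width in kb and CPM per covered kb (x axes) for each of the 8 genes (y axis), in the pooled WT list (circles) and the pooled dKO list (squares), with no error bar because the samples were pooled. Rptor had the most counts and the widest cover in both lists, from 435 to 581 CPM, and Tsc1 the fewest counts in both, from 96.5 to 130.4.

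The PI3K enzyme itself was represented by Pik3cd, which encodes the catalytic subunit p110delta that leukocytes use most, and by regulatory subunits. Pik3cd (chr4:149023277-149076680, minus strand) had 33850 WT counts across 105 kb and 24044 dKO counts across 117 kb, or 409 and 417 CPM. These levels were nearly alike, with a log2 count ratio of 0.03 (0.00 to 0.05). The width ratio was 0.15 and the depth ratio -0.12 on the log2 scale. In WT, 1 island of 94.4 kb with 30917 counts ran through the whole gene and held 91.3% of its counts. In dKO the same stretch was divided into islands of 65.4 kb with 12910 counts and of 35.0 kb with 8335 counts, the larger of which began at -36.3 kb from the 5′ end. The merged region over the promoter, which also covers the promoters of Clstn1 and Tmem201, had a log2 count ratio of -0.06 (-0.08 to -0.03). The region that was higher in dKO lay farther upstream, inside Slc25a33, at chr4:149125201-149141600. It had 1792 WT counts across 8.4 kb and 2799 dKO counts across 16.4 kb, a log2 count ratio of 1.16 (1.08 to 1.249). The dKO island crossed the 50 kb limit and the WT island did not, so the gene's total contains the former and not the latter. With islands clipped at the limits the log2 count ratio of Pik3cd was -0.04.

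Pik3r1 encodes the regulatory subunits that stabilise and restrain the catalytic subunit, with a long form and short forms made from an internal promoter. It (chr13:102450716-102538172, minus strand) had 19968 WT counts across 91.6 kb and 13094 dKO counts across 90.4 kb, or 242 and 227 CPM. The log2 count ratio was -0.09 (-0.12 to -0.06), with width and depth ratios of -0.02 and -0.07. The total thus differed little, while the island pattern along the gene did. The island over the CpG-rich promoter of the long transcript was 20 kb with 5450 counts in WT and 4.0 kb with 1165 counts in dKO, where 4 further islands followed within the same region. Between these islands alone the log2 count ratio was -1.71 and the depth ratio 0.62. Over the whole merged region (chr13:102508601-102539200) counts were 6948 in WT and 4121 in dKO, with a log2 count ratio of -0.23 (-0.29 to -0.18) and a depth ratio of -0.07. At the promoter of the short transcript the island had the same borders in both lists, 14.2 kb at chr13:102460201-102474400. It held 4421 WT and 3051 dKO counts, or 53.5 and 52.9 CPM, and the log2 count ratio of -0.02 had an interval that spanned 0 (-0.08 to 0.05). Small regions at either end of the gene lay past 1.5 in opposite directions. The one near the 3′ end (chr13:102451001-102453600), which also covers the 5′ end of Gm11016, held 193 and 278 counts, with a log2 count ratio of 1.05 (0.78 to 1.31). The one upstream, from -8.03 to -5.03 kb (chr13:102543201-102546200) held 314 and 146 counts, with -0.59 (-0.87 to -0.30).

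Pik3r5 encodes a regulatory subunit of the PI3K class that G protein-coupled receptors activate. It (chr11:68245623-68311351, plus strand) had 25068 WT counts across 97.2 kb and 18908 dKO counts across 105 kb, or 303 and 328 CPM. Its log2 count ratio was 0.11 (0.09 to 0.14) with a width ratio of 0.11 and a depth ratio of 0.00, so that the slightly larger count went with slightly wider islands. Most of it came from the promoter region (chr11:68239401-68292800), with 17657 WT and 13548 dKO counts and a log2 count ratio of 0.14 (0.11 to 0.17). The region at the 3′ end that reaches the start of Pik3r6 (chr11:68294201-68325000) had 3709 and 3016 counts, with 0.22 (0.15 to 0.29). A small upstream region at the Ntn1 locus (chr11:68198001-68201600) went the other way, with 603 counts in WT, 236 in dKO and -0.83 (-1.05 to -0.62), the lowest log2 count ratio among the regions of the 8 genes. Pik3r6, which encodes a related subunit and starts just downstream, shared 4 WT islands with 21366 counts and 2 dKO islands with 16564 counts with Pik3r5, so the values of these neighbours are not separate measurements.

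The inhibitor Pik3ip1 and the phosphatase gene Inpp5d lay on opposite sides of WT. Pik3ip1 encodes a membrane protein that binds and restrains PI3K in resting T cells. It (chr11:3230404-3242974, plus strand) had 24915 WT counts across 71.8 kb and 14126 dKO counts across 65.0 kb, or 301 and 245 CPM. It was the lowest of the 8 genes, with a log2 count ratio of -0.30 (-0.33 to -0.27), which is a percentile of 25.9 among all protein-coding genes. Width and depth were both lower, at -0.14 and -0.16. The promoter region (chr11:3219201-3258800), which extends over the promoter of Limk2, held 15634 WT and 8352 dKO counts, with a log2 count ratio of -0.38 (-0.42 to -0.35) and a depth ratio of -0.28. The upstream region at Patz1 (chr11:3184201-3218600) held 9281 and 6208 counts and had -0.06 (-0.11 to -0.01). The lower count of Pik3ip1 thus lay at the gene more than at its upstream neighbour, although 15.8 kb of its WT islands and 8.43 kb of its dKO islands lay past the window, and clipping them gave -0.11.

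Inpp5d encodes SHIP1, the lipid phosphatase that removes the phosphate added by PI3K. It (chr1:89516887-89617082, plus strand) had 18908 WT counts across 83.2 kb and 16239 dKO counts across 97.2 kb, or 229 and 282 CPM. The log2 count ratio was 0.30 (0.27 to 0.33), with a width ratio of 0.22 and a depth ratio of 0.08. Over the whole window Inpp5d was higher in counts, width and depth, and all 6 of its regions with islands in both lists had count and depth ratios above 0. The merged promoter region (chr1:89515601-89549600) held 10919 WT and 8358 dKO counts, with 0.13 (0.09 to 0.18). The island at the 5′ end began at the same base in both lists, and was 13.8 kb with 544 counts per kb in WT and 9.6 kb with 468 counts per kb in dKO, a depth ratio of 0.30 after scaling. Because it was narrower in dKO, with a width ratio of -0.52, that island alone had a log2 count ratio of -0.22 (-0.28 to -0.17), opposite to the merged region. The region with the highest count ratio lay about 50 kb upstream, over annotated starts of Ngef and Neu2, at chr1:89462401-89472200, with 570 and 982 counts and a log2 count ratio of 1.30 (1.16 to 1.45). A dKO island near the 3′ end, at chr1:89609801-89614000 and with 348 counts, overlapped no WT island, and the nearest WT island, just beyond it at chr1:89614201-89615600 and with 182 counts, overlapped no dKO island.

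Akt1, Tsc1 and Rptor, which act below PI3K, had the highest count ratios of the 8 genes when whole islands were counted, and at all of them the cover was wider and the depth lower in dKO. With islands clipped to the window the log2 count ratios were 0.25 at Akt1, 0.11 at Tsc1 and 0.32 at Rptor, and Inpp5d, with 0.29, then lay above Akt1 and Tsc1. Akt1 encodes the kinase that carries the PI3K signal. It (chr12:113892032-113913095, minus strand) had 10511 WT counts across 43.2 kb and 9789 dKO counts across 73.4 kb, or 127 and 169.8 CPM. Its log2 count ratio was 0.42 (0.38 to 0.46), the width ratio 0.76 and the depth ratio -0.35. Around the 5′ end WT had separate islands of 4.6, 3.8 and 21.8 kb, with 533 counts per kb in the first, whereas dKO had 1 island of 42.8 kb with 152 counts per kb that ran from -30.3 to 12.5 kb of the 5′ end, over Zbtb42. Over that merged region (chr12:113900601-113943400) counts were 8313 in WT and 6503 in dKO, a log2 count ratio of 0.17 (0.12 to 0.21). The region at AW555464 farther upstream (chr12:113953201-113977000) held 2198 and 2480 counts, with 0.69 (0.61 to 0.78). Islands without a WT counterpart held 8.23% of the dKO counts of Akt1, the largest share among the 8 genes.

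Tsc1 encodes a subunit of the complex that restrains mTORC1. It (chr2:28496748-28546687, plus strand) had 7976 WT counts across 39.6 kb and 7520 dKO counts across 63.0 kb, or 96.5 and 130.4 CPM. Counts differed by a log2 ratio of 0.43 (0.39 to 0.48), with a width ratio of 0.67 and a depth ratio of -0.24. The promoter ran against this total. The promoter region (chr2:28490601-28499400) had 2932 WT counts across 8.2 kb and 1450 dKO counts across 6.6 kb, with a log2 count ratio of -0.50 (-0.59 to -0.41). Just upstream, at chr2:28479801-28489600, the dKO island was 9.8 kb with 770 counts and the WT island 2.6 kb with 321 counts, a log2 count ratio of 1.78 (1.59 to 1.97). The largest contribution came from a region at the 3′ end that also covers the promoters of Ak8 and 1700026L06Rik (chr2:28542601-28584400), with 4482 and 4844 counts and 0.63 (0.57 to 0.69). Of the 39.6 kb of WT islands and 63.0 kb of dKO islands, 16.7 and 25.3 kb lay inside the window of Tsc1.

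Rptor encodes raptor, the subunit of mTORC1 that recruits its substrates. It (chr11:119464219-119760890, plus strand) had 35954 WT counts across 189 kb and 33493 dKO counts across 281 kb, or 435 and 581 CPM. The log2 count ratio was 0.42 (0.40 to 0.44), with a width ratio of 0.58 and a depth ratio of -0.16. As at Tsc1, the promoter was lower. The island over the 5′ end (chr11:119463401-119466600) held 1715 counts in 3.2 kb in WT and 717 counts in 2.6 kb in dKO, a log2 count ratio of -0.74 (-0.86 to -0.61) and a depth ratio of -0.44. A 39.4 kb intragenic island with identical borders (chr11:119520801-119560200) was nearly level, with 8613 and 6281 counts, or 104 and 109 CPM, and 0.06 (0.02 to 0.11). The gene was then divided 100 kb from its 5′ end, a point chosen after the values were seen. From the 5′ end to that point WT held 16970 and dKO 11736 counts, with -0.01 (-0.05 to 0.02). In regions that began beyond it and ended within the gene WT held 14848 counts over 79.4 kb and dKO 14632 counts over 125 kb, with 0.50 (0.47 to 0.53). These values describe that split and test nothing. Islands in dKO alone made up 3 of 10 regions of the distal stretch and 1 of 5 of the proximal stretch, against 28.1% of all regions of the series. The longest in the distal stretch, 11.4 kb at chr11:119641201-119652600, held 972 counts. The region with the most counts (chr11:119727601-119834200) began in the gene and ran over Chmp6 and the promoter of Baiap2, with 19101 WT and 16556 dKO counts and 0.31 (0.28 to 0.34).

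**Figure D2:**
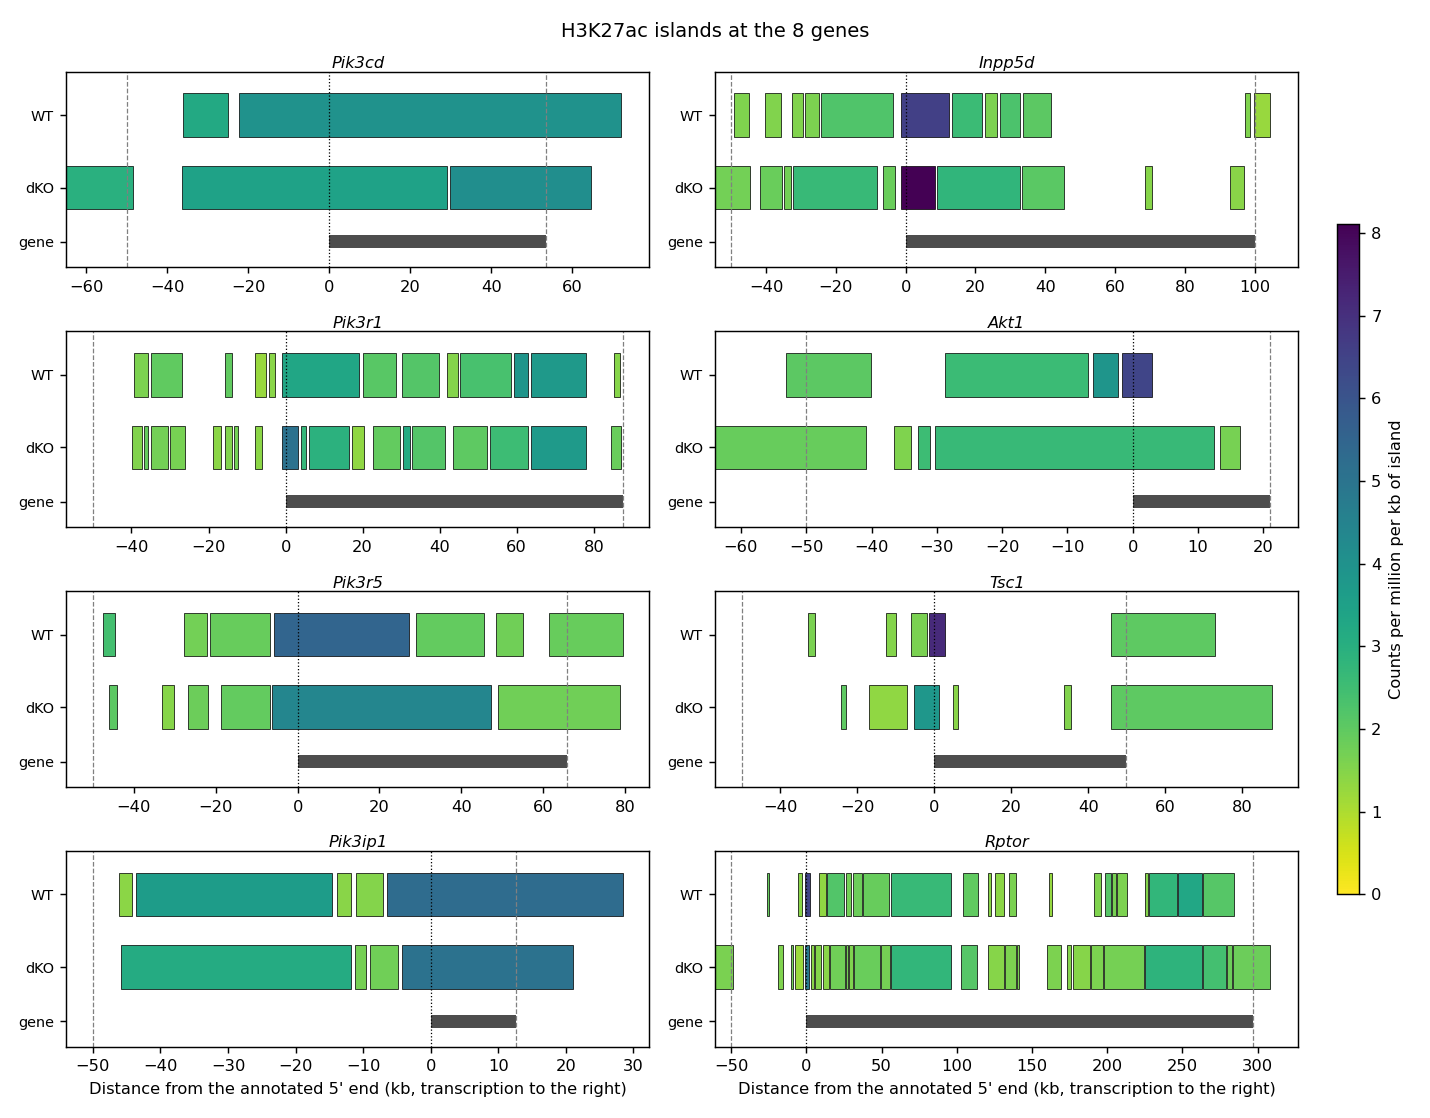
Islands of the WT and dKO lists at each of the 8 genes, drawn to scale by distance in kb from the annotated 5′ end (x axis, transcription to the right), with the gene as a grey bar, dashed lines at the limits of the window and colour for CPM per kb of island. Akt1 shows separate WT islands of 4.6, 3.8 and 21.8 kb where dKO has 1 of 42.8 kb, and Rptor shows dKO islands between 160.2 and 188 kb where WT has a 2.2 kb island or none.

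The region with the highest log2 count ratio among the 8 genes lay in an intron of Rptor, 160.2 kb from the 5′ end, at chr11:119624401-119633400. It had 231 WT counts across 2.2 kb and 825 dKO counts across 9.0 kb, with 2.36 (2.15 to 2.57). It contained 5 copies of CTTTGAT on both strands, of which 1 was on the minus strand and 4 on the plus strand, 3 of the latter 90 bases apart in a tandem repeat and the other 120 bases before them. The stretch with 3 copies is shown, with the motif in capitals, because the motif recurred there every 90 bases. Shorter units of the repeat between these copies differ from the motif by a letter or more. The authors kept uniquely mapped reads, and how many reads could be placed in this repeat was not tested.
Rptor intronic repeat, chr11:119624860-119625059, plus strand: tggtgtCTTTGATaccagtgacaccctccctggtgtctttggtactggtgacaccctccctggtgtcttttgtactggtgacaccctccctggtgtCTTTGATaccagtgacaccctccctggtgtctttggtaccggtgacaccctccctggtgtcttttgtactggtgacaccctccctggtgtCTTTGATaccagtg

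Near the annotated 5′ ends, 4 of the 8 genes, Inpp5d, Pik3cd, Pik3ip1 and Tsc1, had 1 CTTTGAT each within 2 kb and inside an island region, and the other genes had 0. Among 13090 protein-coding genes with islands at the 5′ end in both lists, 38.5% had such a match. None of the 4 lay in an annotated exon. They are shown with 20 bases on either side, read on the strand that carries the motif, which is in capitals, with the distance of the motif from the 5′ end (negative upstream).
Inpp5d, at -0.752 kb, chr1:89516112-89516158, minus strand: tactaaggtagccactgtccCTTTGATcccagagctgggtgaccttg
Pik3cd, at 0.402 kb, chr4:149076255-149076301, plus strand: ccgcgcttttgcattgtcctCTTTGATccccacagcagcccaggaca
Pik3ip1, at 1.024 kb, chr11:3231405-3231451, minus strand: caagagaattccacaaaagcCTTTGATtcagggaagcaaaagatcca
Tsc1, at 1.591 kb, chr2:28498316-28498362, plus strand: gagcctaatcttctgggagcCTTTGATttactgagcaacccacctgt

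Across all their regions the 8 genes had 156 matches in 1025 kb, or 0.152 per kb, and all merged regions of the series had 0.163 per kb. Among the 8 genes the density ran from 0.0539 per kb at Akt1 to 0.226 per kb at Inpp5d. The 18 regions of the 8 genes with islands in dKO alone had 0.141 per kb. A match of letters is a description of the sequence and no binding site.

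**Figure D3:**
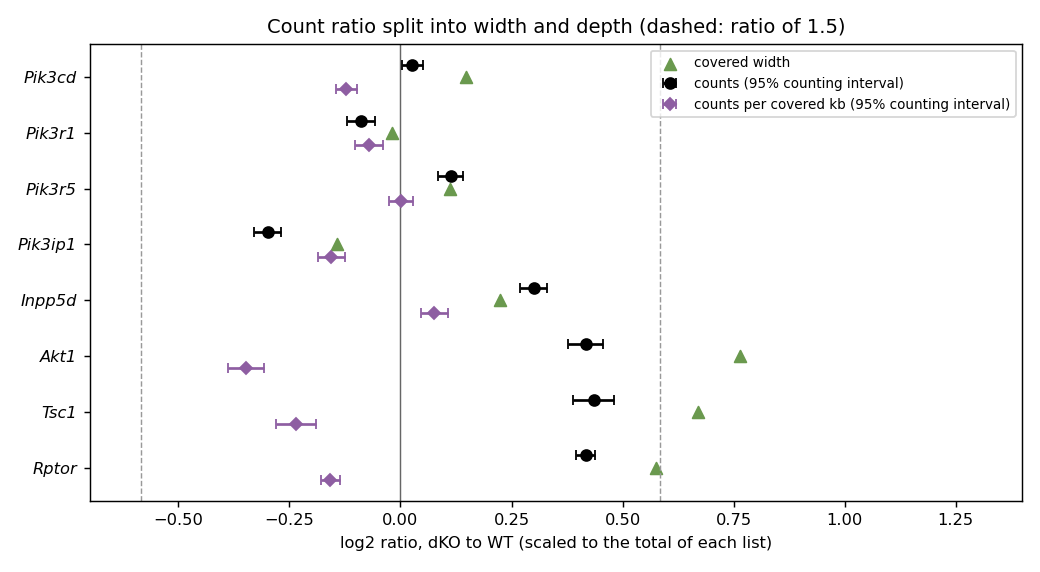
log2 ratio of dKO to WT (x axis) for each of the 8 genes (y axis), for counts (circles), covered width (triangles) and counts per covered kb (diamonds), with bars for 95% counting intervals where counts are involved and dashed lines at a ratio of 1.5. Count ratios run from -0.30 at Pik3ip1 to 0.43 at Tsc1. The width ratio exceeds the count ratio wherever depth is below 0, which is at every gene except Pik3r5 and Inpp5d.

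Merging the islands of both lists gave 65 regions at the 8 genes. Islands of both lists were found in 43 of them (66.2%, against 59.1% of 76633 regions in the series), of WT alone in 4 (6.15%, against 12.8%) and of dKO alone in 18 (27.7%, against 28.1%). Of the 43 shared regions, 13 were higher in dKO at a ratio of 1.5, against 11.1% of shared regions in the series, and 3 were lower, against 14.6% (25.7% in either direction). The 3 lower regions were the upstream regions of Pik3r5 and Pik3r1 and the promoter of Rptor, and 5 of the 13 higher regions were at Rptor and 3 at Inpp5d. The log2 count ratio ran from -0.83 to 2.36. Depth spread far less, from -0.44 to 0.44, and 0 of the 43 regions were past 1.5 in depth, against 5.68% in the series. Among the 16 regions past 1.5 in counts, width was the larger term in 15, and the exception was the promoter of Rptor. The like share was not computed for the series, so this count does not set the 8 genes apart. In the series, too, more shared regions were past 1.5 in counts (25.7%) than in depth (5.68%). The largest island region found in WT alone ran from 157 counts at Rptor to 241 at Tsc1 among the 4 genes that had one, and in dKO alone from 177 counts at Pik3r1 and at Tsc1 to 972 at Rptor among 6 genes.

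The shared regions were then grouped by position. Of the 43 shared regions, 13 covered a TSS of one of the 8 genes, alternative starts included, with median log2 ratios of -0.01 for counts and -0.07 for depth. In 9 regions over other exons the medians were 0.31 and 0.03, in 5 intronic regions 0.22 and 0.10, and in 16 upstream regions 0.16 and -0.04. Rptor supplied 14 of the 43 regions and 5 of the 13 over a TSS, and the order was not the same at every gene, since at Pik3r1 and Pik3r5 the lowest upstream region lay below the promoter. In the whole series, 10505 regions over a 5′ end had medians of -0.22 and -0.20, and 34817 other regions had -0.02 and 0.02. Of the regions over a 5′ end 27% lay above 0 in counts, so the lower promoters of Rptor and Tsc1 went in the direction of most promoter regions of the series. The 13 regions over a TSS include alternative starts within genes and are not a like set. Regions over the annotated 5′ ends had count ratios of -0.74 at Rptor, -0.50 at Tsc1, -0.38 at Pik3ip1, -0.23 at Pik3r1 and -0.06 at Pik3cd. Those of Inpp5d, Pik3r5 and Akt1 had 0.13, 0.14 and 0.17. Where each list had a single island and the widths differed by at most 25%, 7 regions remained at Pik3r1, Pik3r5 and Rptor. Their log2 width ratios still ran from -0.31 to 0.03. Their median depth ratio was 0.04, from -0.44 to 0.10, and 0 of 7 were past 1.5, against 3.95% of 15217 such regions in the series.

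**Figure D4:**
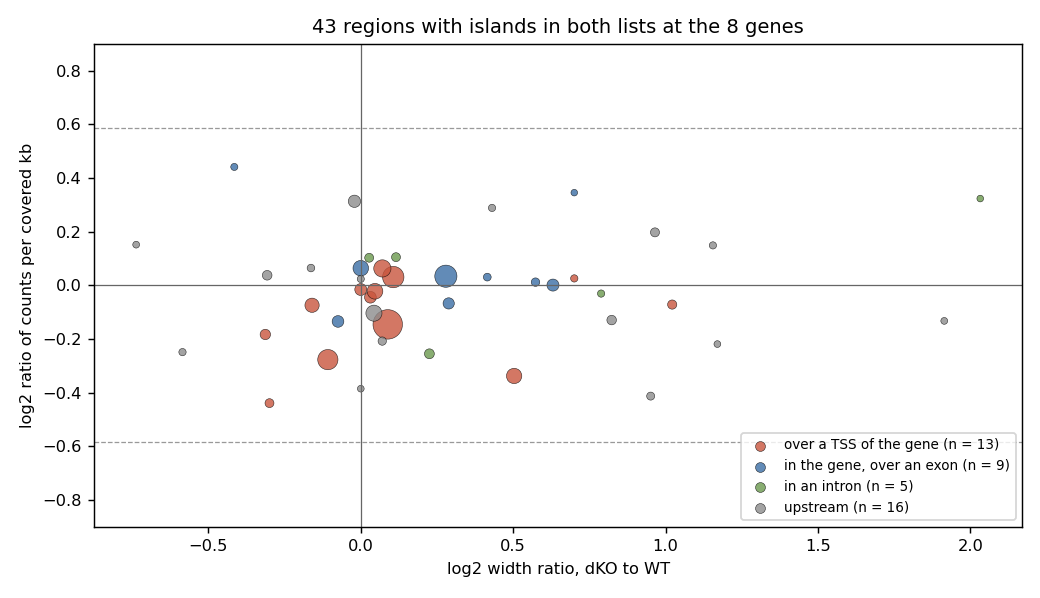
log2 width ratio (x axis) and log2 ratio of counts per covered kb (y axis), dKO to WT, of the 43 regions with islands in both lists, coloured by position, with larger points for more WT CPM and dashed lines at a ratio of 1.5 in depth. All points lie between -0.44 and 0.44 in depth, while width reaches 2.03 at the intronic region of Rptor.

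The rest of the pathway was read from a list of 36 other genes, each of which had islands in both lists. Their median log2 count ratio was 0.00, and 18 lay above and 18 below 0. At a ratio of 1.5, 2 were higher and 3 were lower in dKO, against 11.5% of all genes in each direction. Depth was above WT at 4 of the 36 genes, against 20.6% of all genes. Both genes past 1.5 upward were partners of the genes above. Pik3r2, another regulatory subunit, had 7529 WT counts across 31.4 kb and 11884 dKO counts across 78.6 kb, with 1.18 (1.14 to 1.22). Tsc2, which forms the TSC complex with Tsc1, held 8498 and 11072 counts, with 0.90 (0.86 to 0.94). Neither stayed past 1.5 with islands clipped to the window, where Pik3r2 had 0.42 and Tsc2 0.20.

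The genes past 1.5 downward were a phosphatase, a catalytic subunit and a subunit of mTORC2. Inpp4b, a lipid phosphatase, held 47790 counts in WT and 15643 in dKO, with -1.09 (-1.12 to -1.07). Pik3cb, the p110beta subunit, held 3210 and 1276 counts, with -0.81 (-0.90 to -0.72), whereas Pik3cd was nearly level. Rictor, the mTORC2 counterpart of Rptor, held 6273 and 2812 counts, with -0.64 (-0.70 to -0.57). In counts over the whole window this was opposite in sign to Rptor, whereas depth was lower in dKO at both, at -0.25 for Rictor and -0.16 for Rptor. Scaled by shared regions, Rictor had -0.57 and was no longer past 1.5. Of the 4 listed mTORC1 genes 0 and of the 3 mTORC2 genes 1 were past 1.5, and of 6 kinases 0 were. Among genes within 1.5 the highest were Pik3ap1, an adaptor, with 0.44, Prr5, an mTORC2 subunit, with 0.41, and Pik3cg, the catalytic partner of Pik3r5, with 0.28. The lowest were Eif4ebp1, a target of mTORC1, with -0.52, Pik3r3, a regulatory subunit, with -0.47, and Foxo1, a transcription factor held in check by Akt, with -0.33.

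**Figure D5:**
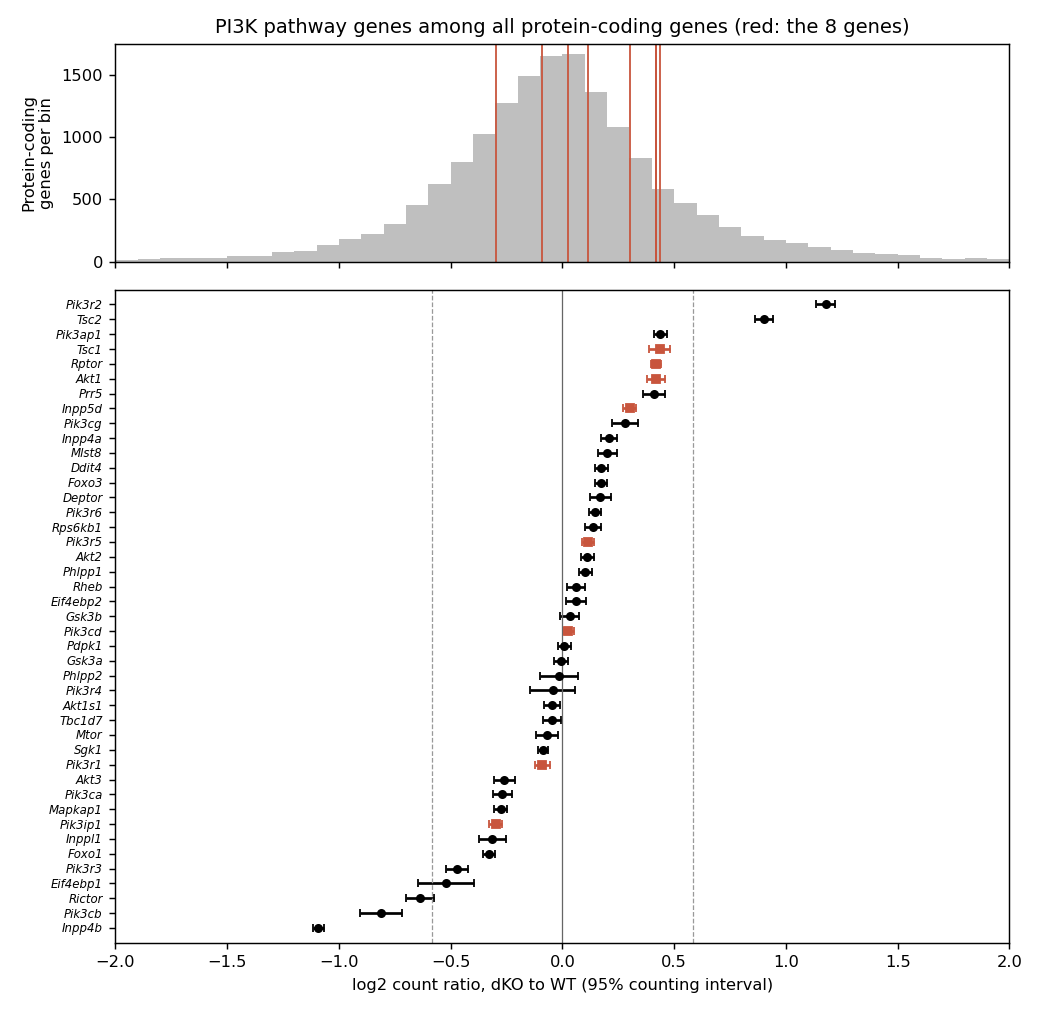
Upper panel, number of protein-coding genes (y axis) by log2 count ratio of dKO to WT (x axis, bins of 0.1), with red lines at the 8 genes. Lower panel, log2 count ratio with its 95% counting interval for 35 of the 36 other pathway genes (black) and the 8 genes (red), with dashed lines at a ratio of 1.5; the extremes are Inpp4b at -1.09 and Pik3r2 at 1.18.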

How the data were processed

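H3K27ac ChIP-seq libraries from 4 WT and 3 dKO samples and 1 input sample per genotype were considered. Per the labels and the study's methods, the authors checked reads with FastQC, aligned them to mm9 with Bowtie2 2.2.5, kept uniquely mapped reads of mapping quality above 10, pooled the samples of a genotype and called islands with SICER 1.1 at an FDR below 0.01, with windows of 200 bp and gaps of 400 bp. Removal of duplicates and use of the input are not given in the sources used here. The deposited values are whole-number read counts per island, neither scaled to depth nor to width. No values of the input samples were used here.

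The deposited island starts count from 0, and positions here count from 1. Genes came from GENCODE vM1 (NCBIM37, which is mm9), and an island was assigned to a gene when at least 1 bp lay between the gene's 3′ end and 50 kb upstream of its 5′ end, with the whole island counted. Region values also contain the parts and islands of a merged region beyond that window. Counts were summed per gene and list and divided by the list's total, which runs with enrichment as well as depth. Where no island was called, the count is missing, not 0. Reads carry no molecular identifiers and are not independent molecules. Values were computed with Python 3.11.15 and NumPy 2.4.6 and drawn with matplotlib 3.10.9, after the steps had been tested on simulated data.

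The genes named were all 8 members, of the other pathway genes those past a ratio of 1.5 with the highest and lowest others, and of the regions at each member the promoter, the one with most counts, the largest rise and fall among shared regions of at least 200 counts, and the largest found in 1 list alone. The members and lists were chosen with earlier results of these data known, and the motif matches, the same-border islands and the segments of Rptor are named after their values were seen. The value of 1 pathway gene is not reported here. Alternatives changed the scaling, the measure, the gene window, the island filter, the joining of islands and the ratio called.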

Additional observations from a re-analysis of the deposited data

How the results depend on the processing

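With pooled lists no sample could be left out, and the spread between animals could not be estimated. No paired analysis was possible because the deposited lists hold 1 pooled value per genotype. The number of the 8 genes past a ratio of 1.5 was 0 in the report. It was 1 with the gene body alone, which was Akt1 with a log2 ratio of 1.99, 4 with islands within 1 kb of the TSS alone, 2 with islands within 5 kb joined, and 3 where a difference of 25% either way sufficed, as it did for 45.7% of all genes. Under the other alternatives, a ratio of 2 included, it stayed at 0. With TSS islands alone, 33.3% of all genes were called, 1 of the 4 genes was higher and 3 were lower, and the values rest on how an enriched stretch was divided into islands. The same holds for Akt1 with the gene body alone, since its merged region around the 5′ end had 0.17.

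The median log2 ratio of the 8 genes, 0.21 in the report, was 0.28 when scaled by shared regions or by the median region, -0.14 by counts per covered kb, 0.17 with the gene body alone or to 10 kb upstream, 0.12 with clipped islands, -0.37 with TSS islands alone, 0.28 with islands of at least 200 counts, 0.24 with islands that overlap the other list and 0.44 with joined islands. The median of the other pathway genes, 0.00 in the report, was 0.071 and 0.073 under those scalings, -0.13 by counts per covered kb, -0.11 with the gene body alone, -0.038 to 10 kb upstream, -0.32 with TSS islands alone, 0.038 with islands of at least 200 counts and 0.067 with joined islands. Either scaling moves every ratio up by 0.07, and autosomal totals change it by -0.01. Pik3r1, Pik3r5 and Pik3ip1 kept their sign in 11 of 11 alternatives. Some of these values were near 0, with 0.0014 at Pik3r5 by counts per covered kb and -0.017 at Pik3r1 when scaled by the median region. Akt1, Tsc1 and Rptor fell below 0 by counts per covered kb (-0.35, -0.24 and -0.16). With TSS islands alone Tsc1, Rptor and Inpp5d did so (-0.18, -0.74 and -0.22). Pik3cd kept its sign in 6 of 11, from -0.74 to 0.39. The causes were not tested.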
